A study of Mus musculus with 6 samples.

Results

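The input libraries of this study hold the small RNA that NIH 3T3 cells contain before any antibody is added. They were read here as a catalogue of that RNA, as far as the genes listed cover it. NIH 3T3 is an established line of mouse embryo fibroblasts. The members are the 3 samples labelled Input 1 to Input 3, out of 6 samples in the series. All 3 came from cells transfected with the pEGFP-NXF3 plasmid, which encodes the RNA export factor NXF3 fused to a green fluorescent protein, and no antibody was used on them. The labels speak of 3 independent experiments. Since every input came from transfected cells, the values describe that state only. A small RNA kit and 14 cycles of PCR gave the libraries, of which a gel cut kept products from 30 to 375 nucleotides. Whether adapters are included in that size was not given in the sources used here. The tables list 23420 genes, and 10943 of them had a read in at least 1 input. With a single group there is no contrast to test, so each value is given per library, with its standard deviation (SD) over the 3 libraries.

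Small nucleolar RNAs (snoRNAs) are short stable RNAs that guide the chemical modification of other RNAs, mainly ribosomal RNA. Box C/D snoRNAs, named for a pair of short sequence motifs near their ends, guide ribose methylation, and box H/ACA snoRNAs guide the conversion of uridine to pseudouridine. Most are cut from the introns of longer genes, often genes for ribosomal proteins or translation factors. Small Cajal body RNAs (scaRNAs) do the same work on spliceosomal RNAs, microRNAs repress mRNAs that pair with their seed, and replication-dependent histone mRNAs carry a stem-loop at their end and no poly(A) tail.

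Gene counts totalled 3828642, 1884117 and 3935088 in inputs 1, 2 and 3, which is 30.3%, 22.2% and 24.8% of all counts of each library, summary lines included. Reads that did not align were 37.8%, 51.7% and 44.1% of that total, and reads of too low alignment quality 9.18%, 8.97% and 9.04%. No library repeated another: for each pair a chi-square statistic over genes was at least 58.2 times its degrees of freedom. The count of 0 in a library allows up to 3 counts, or 7.84e-05%, 0.000159% and 7.62e-05% of gene counts. Those floors, and the exact Clopper-Pearson 95% intervals below, cover counting error only, because PCR reads without molecular identifiers are not independent molecules. Fibroblast markers were present: 11 of 12 fibroblast markers had reads (947, 555 and 1368 counts in inputs 1, 2 and 3), led by the fibronectin gene Fn1 with 475, 213 and 553. Of these, 10 had reads in all 3 inputs, and Tgfbi had only 3, 0 and 0 counts. Among all 23420 genes listed, 10943 had a read in at least 1 input. Lum was at 0. None of 5 adipocyte, 5 epithelial and 3 skeletal muscle markers had a read. Of 5 leukocyte and 3 endothelial markers, Cd68 and Pecam1 had 1, 0 and 1 counts each, and the others were at 0.

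Box C/D snoRNAs made up most of the counted RNA. They took 78.6%, 72.5% and 81.8% of gene counts in inputs 1, 2 and 3, a mean of 77.6% ± 4.72 (SD, n = 3), with exact 95% intervals no wider than from 72.4% to 72.6% in the shallowest library. Gas5, a noncoding gene that carries snoRNAs, took a further 16.7% ± 4.89. Together C/D snoRNAs and Gas5 held 95.4%, 94.0% and 93.5% (mean 94.3% ± 0.98). As parts that nearly fill the whole, a smaller C/D share went with a larger Gas5 share, and the sum of both differed less between libraries than either of them. Only 5.74% ± 0.98 of gene counts lay outside these genes. Of that remainder the ribosomal precursor Rn45s took 45.6% ± 1.75, other protein-coding genes 32.4% ± 1.25 and box H/ACA snoRNAs 9.20% ± 1.27. Shares cover listed genes only, and the classes were not listed equally. Of the symbols in the GENCODE M21 annotation, 72 of 97 Snord, 36 of 40 Snora, 9 of 9 Scarna and 624 of 2201 microRNA genes were listed.

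**Figure D1:**
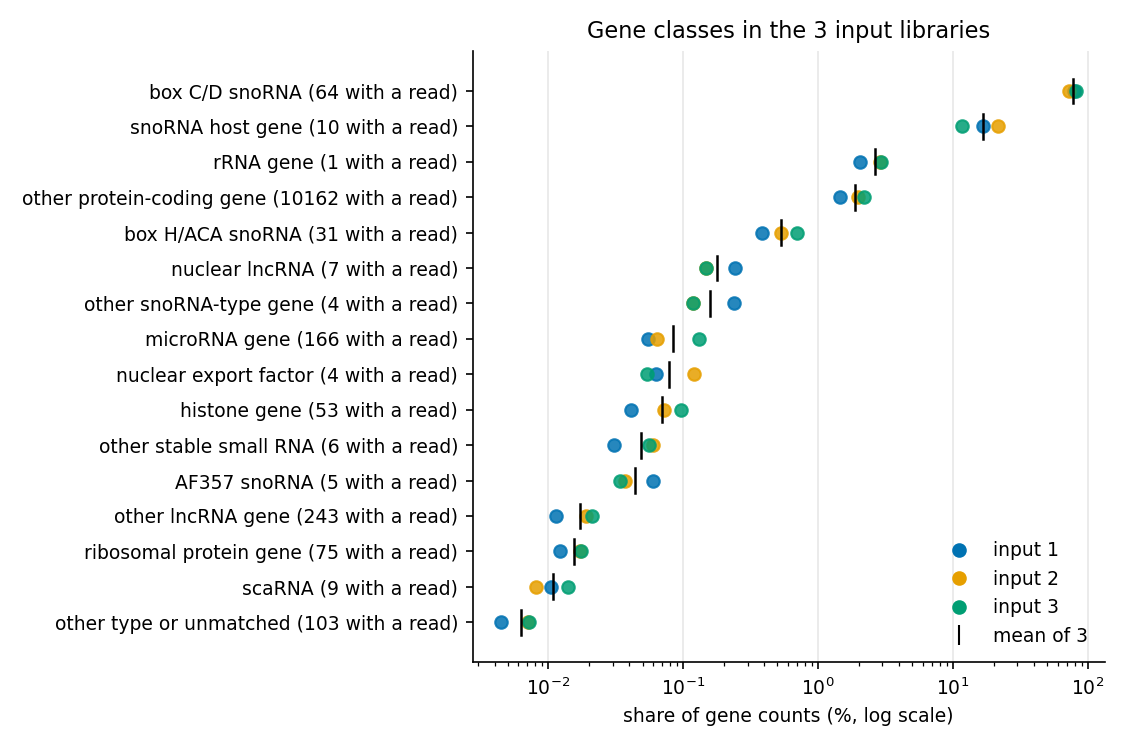
Share of gene counts (%, log scale) of each gene class in inputs 1, 2 and 3 (coloured points) with their mean (black bar), and the number of genes with a read in brackets. Box C/D snoRNAs lie at 72.5% to 81.8% and snoRNA host genes at 11.7% to 21.5%, while microRNA genes lie at 0.0549% to 0.132% and histone genes at 0.0409% to 0.0963%.

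The 10 C/D snoRNAs with the most counts held 67.7% ± 4.52 of gene counts, and 9 of them are printed for that reason, as annotated in GENCODE M21 and in order of their mean share. Capitals mark the first TGATGA, a common form of the C box, and CTGA, the D box, where the latter lies in the last 15 bases.
Snord12: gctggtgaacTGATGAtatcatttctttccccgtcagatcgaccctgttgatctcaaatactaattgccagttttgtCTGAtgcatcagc
Snord43: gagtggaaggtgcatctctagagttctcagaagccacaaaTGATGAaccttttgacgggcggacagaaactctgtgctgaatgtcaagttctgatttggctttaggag
Snord49a: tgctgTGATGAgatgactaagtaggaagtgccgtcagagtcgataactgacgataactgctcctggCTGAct
Snord83b: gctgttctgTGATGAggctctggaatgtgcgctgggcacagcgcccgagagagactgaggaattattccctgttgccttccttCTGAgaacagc
Snord2: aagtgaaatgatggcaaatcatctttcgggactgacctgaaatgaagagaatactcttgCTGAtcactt
Snord99: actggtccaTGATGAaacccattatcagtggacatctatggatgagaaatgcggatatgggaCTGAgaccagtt
Snord110: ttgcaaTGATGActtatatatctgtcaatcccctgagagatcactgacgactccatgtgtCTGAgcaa
Snord47: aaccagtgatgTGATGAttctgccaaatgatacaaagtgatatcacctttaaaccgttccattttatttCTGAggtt
Snord96a: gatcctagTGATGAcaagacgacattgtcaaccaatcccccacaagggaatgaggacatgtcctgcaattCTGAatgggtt
Of the 10 highest, 9 hold TGATGA and 9 hold CTGA in the last 15 bases. Snord2 lacks the exact C box letters, and Snord43 has its TGATGA at base 41 and no CTGA within the last 15 bases of the model. That Snord43 model is typed as a microRNA in GENCODE M21 and may reach beyond the snoRNA.

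The class was searched in the same way, except Snord58b, which was left out. Over the other 63 C/D snoRNAs with a read, TGATGA was found in 68.3% and CTGA in the last 15 bases in 88.9%. Only the transcript strand was searched. The shares were 75.5% and 93.9% over all 98 GENCODE transcripts named Snord, and 26.5% and 30.9% over all 1558 annotated snoRNA and scaRNA transcripts. A match of letters describes the transcript and is not a test of function, and other forms of the boxes were not searched. Across 62 C/D snoRNAs, rank correlation with the mean share was -0.22 for length and -0.02 for GC content. The median length was 78.5 bases and the median GC content 44.5%. These are descriptions across genes, which are not replicates and share the libraries.

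Snord55 took 16.5%, 14.6% and 13.5% of gene counts (mean 14.8% ± 1.52, SD, n = 3). Snord12, which lies in the noncoding gene Zfas1 (chr2:167065276-167065365, plus strand, GRCm38), took 15.2%, 9.89% and 17.5% (14.2% ± 3.91). The order of the pair rested on the library, since Snord55 was above Snord12 in inputs 1 and 2 and below it in input 3. Snord43, from an intron of the ribosomal protein gene Rpl3 (chr15:80082847-80082954, minus strand), had 11.6%, 11.04% and 7.43% (10.0% ± 2.25). Snord49a, from 2410006H16Rik (chr11:62603450-62603521, plus strand), had 4.47%, 9.46% and 15.6% (9.84% ± 5.58). Ranges of Snord12, Snord43 and Snord49a overlapped their neighbours' ranges, so their order is not settled by these libraries, although every Snord55 value was above every Snord43 value. No single C/D snoRNA was the highest of all in every library, and Snord49a moved from the lowest of these 4 in input 1 to the second place in input 3.

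The next members in the order differed in how even they were. Snord83b, the other C/D snoRNA of Rpl3, took 5.94%, 5.67% and 5.93% (5.85% ± 0.15). Snord2, which lies in the translation factor gene Eif4a2, took 5.20%, 4.42% and 4.98% (4.87% ± 0.40). Every Snord83b value was above every Snord2 value, and every Snord2 value was above those of Snord99, the member in the noncoding host gene Snhg12, at 3.63%, 2.35% and 2.46%. Snord110, in the gene of the C/D snoRNP protein Nop56, had 3.50%, 2.17% and 1.49%, which overlapped Snord99 and Snord47. Snord47, which lies in Gas5, had 1.62%, 1.85% and 1.68% (1.72% ± 0.12). Snord96a, in Rack1, a gene for a ribosome-bound scaffold protein, had 1.23%, 1.33% and 1.06% (1.21% ± 0.14), below Snord47 in all 3 libraries.

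**Figure D2:**
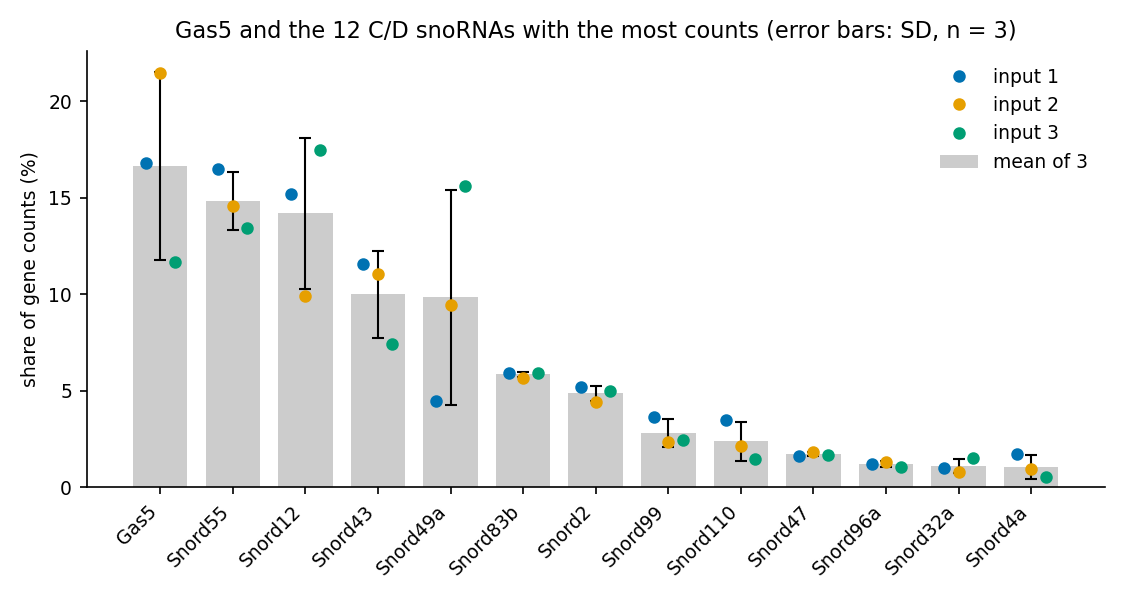
Share of gene counts (%) of Gas5 and of the 12 C/D snoRNAs with the most counts, as the mean of 3 inputs (grey bar), its SD (error bar) and each library (coloured points). Snord49a ranges from 4.47% in input 1 to 15.6% in input 3, whereas Snord83b stays between 5.67% and 5.94%.

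A share of counts is a composition, and the order was also taken per kilobase of annotated transcript as an alternative. Where a read stands for a whole small RNA, dividing by length favours shorter RNAs. Neither scale is thus a level per molecule. Snord55 and Snord12 stayed in the highest places. As RPKM, here counts scaled to the library's gene counts and to the length of the annotated exons, their mean levels were 1879095 ± 192079 and 1578267 ± 434187. Snord49a passed Snord43 on this scale (1367187 ± 774522 and 926944 ± 208316), and Snord2 passed Snord83b (705589 ± 58342 and 621911 ± 16360). GENCODE M21 types the Snord43 model, of 108 bases, as a microRNA. The place of Snord43 per kilobase rests on that length, which may be longer than the snoRNA. With transcripts of like length, the order by counts and the order by RPKM were nearly the same, and Snord96a moved from rank 10 to rank 11. Per kilobase, C/D snoRNAs were 98.7% ± 0.12 of the total over genes with a length. That value rests on dividing the counts of Gas5 by 3760 bases, too long a length for reads of any unlisted snoRNAs inside it. Rn45s, which has no length here, is not in that total.

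Beyond the leading members the C/D snoRNAs fell off over several orders of magnitude. Of the 64 with a read, 12 took more than 1% of gene counts, 22 took 0.1% to 1%, 16 took 0.01% to 0.1% and 14 took less. The members from rank 11 on held 9.73%, 9.72% and 10.2% together (9.88% ± 0.26). That sum was steadier over libraries than the share of the 10 highest, which was 68.8%, 62.8% and 71.6%. Rank order was kept between libraries: Spearman's coefficient across the 63 members averaging at least 10 counts was 0.951 to 0.984 for the 3 pairs of libraries, a description across genes. Of the 60 members averaging at least 50 counts, 25 differed by more than 2-fold between their highest and lowest library and 21 by less than 1.5-fold.

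The least and most even members show that range. Snord88a had 0.650%, 0.650% and 0.623%, a coefficient of variation (CV, SD divided by the mean) of 0.024. Snord61, a member on chromosome X, had 0.0658%, 0.0232% and 0.0166%, a CV of 0.76, with input 1 apart from the others. The median CV of the class was 0.28, while counting alone would give a median of 0.017 at these counts, and 61 of 63 members lay above their own counting value. The spread of C/D snoRNAs over the libraries was therefore not limited by depth. Its source was not tested.

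Close copies are less certain than the others, because the way reads shared between them were placed was not given in the sources used here. Of pairs above 70% identity over the aligned transcripts, 4 were found among C/D snoRNAs with a read. Snord1b and Snord1c are 97.4% identical, and Snord88a and Snord88c are 94.4% identical, so they are printed here with the D box in capitals.
Snord1b: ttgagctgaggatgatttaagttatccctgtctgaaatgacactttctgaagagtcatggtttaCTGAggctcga
Snord1c: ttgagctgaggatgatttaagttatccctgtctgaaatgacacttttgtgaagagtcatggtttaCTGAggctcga
Snord88a: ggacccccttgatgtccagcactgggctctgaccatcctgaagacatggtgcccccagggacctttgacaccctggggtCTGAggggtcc
Snord88c: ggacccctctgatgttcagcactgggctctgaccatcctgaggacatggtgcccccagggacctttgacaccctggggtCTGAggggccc
Snord1b had 0.296%, 0.210% and 0.265% of gene counts, whereas Snord1c had 2.61e-05%, 5.31e-05% and 0.000153%. Snord88a was likewise far above Snord88c, at 0.00737%, 0.00754% and 0.00648%. Counts of these copies differed in spite of their likeness, and the split within each pair is uncertain.

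SnoRNAs within the same longer gene differed in level by amounts that ranged from small to very large. Of the 64 C/D snoRNAs with a read, 63 lie within the span of a longer gene in GENCODE M21. The longer gene was protein-coding for 50, and 21 lie in ribosomal protein genes. In 36 the snoRNA was intronic in every host model, in 23 it was inside an exon of at least 1 host isoform, and in 4 partly so. Nop56 holds Snord110 and Snord57. Snord57 had 0.420%, 0.339% and 0.174% of gene counts, and the level per kilobase of Snord110 was 8.81, 6.77 and 9.06 times that of Snord57 (mean 8.21 ± 1.26, SD, n = 3). Wdr43, with Snord53 at 1.29, 1.35 and 1.42 times Snord92 per kilobase (1.35 ± 0.06), and Rpl3, with Snord43 at 1.69, 1.70 and 1.09 times Snord83b, held the most even pairs by the mean ratio, among snoRNAs averaging at least 10 counts. The Rpl3 ratio rests on the uncertain length of the Snord43 model.

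Wide gaps occurred within a class, as in Rpl13a, and between classes. Rpl13a, a ribosomal protein gene, holds Snord32a, Snord34, Snord35a and Snord33. Snord32a took 1.00%, 0.780% and 1.52% of gene counts, Snord34 0.284%, 0.392% and 0.386%, and Snord35a 0.198%, 0.157% and 0.357%. Snord33 had 28, 17 and 30 counts, or 0.000799% ± 9.11e-05. Per kilobase Snord32a was 1384, 875 and 2016 times Snord33. Snord33 carries the same exact box letters as Snord32a, as both sequences show.
Snord32a: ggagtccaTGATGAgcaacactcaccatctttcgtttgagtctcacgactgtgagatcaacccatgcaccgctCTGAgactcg
Snord33: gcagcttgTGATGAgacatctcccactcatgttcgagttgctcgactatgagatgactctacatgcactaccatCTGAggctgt
In Eif4a2 the C/D snoRNA Snord2 was 8883 ± 2487 times the H/ACA snoRNA Snora81 per kilobase, and in Snhg12 Snord99 was 5777 ± 2440 times Snora44. Ncl, the nucleolin gene, gave 1207 ± 349 for Snord82 over Snora75. These ratios compare processed snoRNAs of different length and sequence by the reads they gave. How well each was ligated, copied or kept through the gel was not tested.

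**Figure D3:**
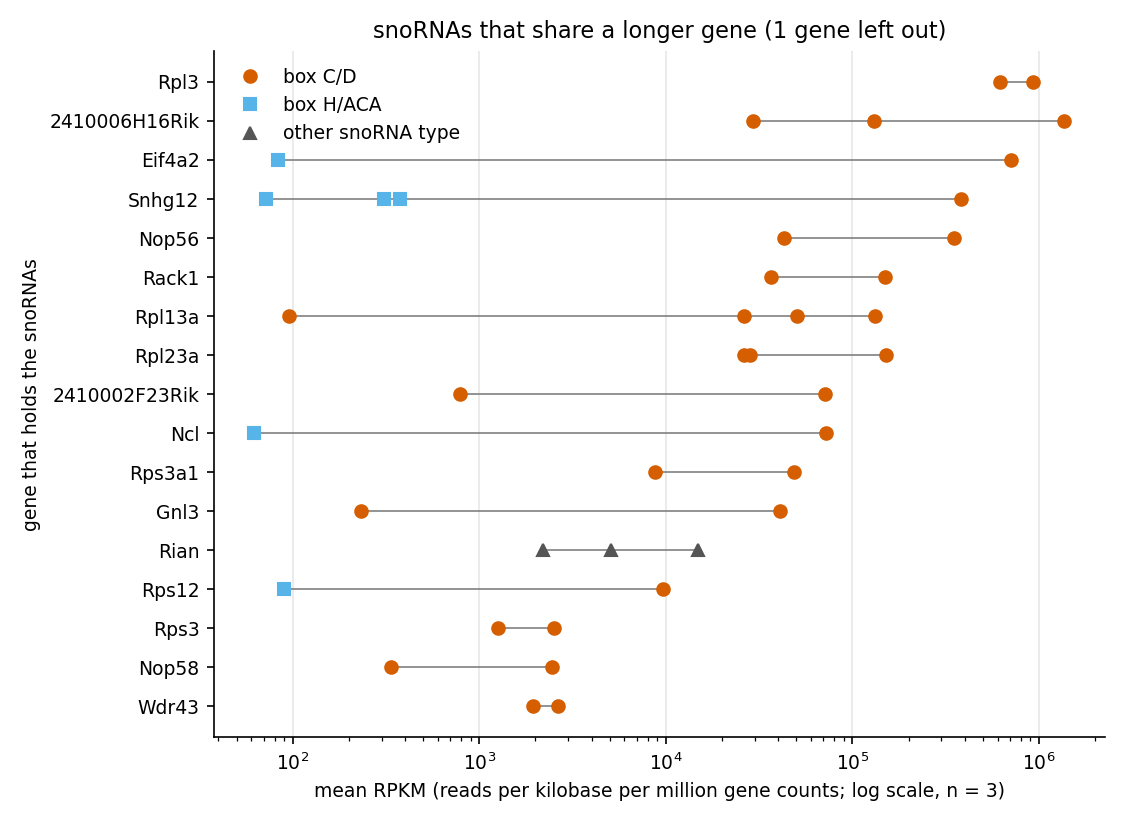
Mean level (RPKM, log scale, n = 3) of the snoRNAs that lie in the same longer gene, for genes with at least 2 snoRNAs of mean 10 counts, 1 gene left out. C/D snoRNAs (circles) of Rpl13a and 2410006H16Rik are far apart, and H/ACA snoRNAs (squares) lie left of the C/D snoRNAs of the same gene.

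Members of a host sometimes moved together over the libraries. The snoRNAs of 2410006H16Rik are Snord49a, Snord49b and Snord65. Snord49b had 0.425%, 0.992% and 1.40%, and Snord65 had 0.143%, 0.202% and 0.290%. All 3 were highest in input 3 and lowest in input 1, as Snord49a was, and Snord49a stayed 31.2, 46.9 and 53.9 times Snord65 per kilobase. Of the 18 hosts with at least 2 snoRNAs of mean 10 counts, 8 had all of them highest in the same input. Total-count scaling can set that count, and the count expected by chance was not worked out. Near-ties are among the 8, such as Rpl3, whose Snord83b had 5.94% in input 1 and 5.93% in input 3. Rack1 went the other way, with Snord96a highest in input 2 and Snord95 (0.118%, 0.254% and 0.372%) highest in input 3.

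Mature host transcripts gave few reads. For 61 C/D snoRNAs the host was listed, and 58 had more counts than the host. Over the 60 of these averaging at least 10 counts, the host had a median of 9.33 counts per library. Rpl3 had 4, 2 and 11 counts beside 442678, 208007 and 292404 for its Snord43. The exceptions were Snord47 in Gas5, Snord67 in Ckap5 and Snord1c in 1810032O08Rik, the last with a mean of 2.67 counts against 3.33. Long mRNAs can enter such a library only as fragments, so these counts do not measure host expression.

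Gas5 was the exception among the noncoding genes known mainly as snoRNA hosts, the class of Gas5 and the Snhg genes. It had 642404, 404487 and 460051 counts, or 16.8%, 21.5% and 11.7% of gene counts. It was the gene with the most counts in inputs 1 and 2 and ranked below Snord12, Snord49a and Snord55 in input 3. The other genes of that class together had 46, 32 and 54 counts, or 0.00142% ± 0.00025, led by Snhg1 with 15, 13 and 16 and Snhg5 with 11, 6 and 12. In GENCODE M21, Gas5 spans chr1:161034422-161038539 on the plus strand (GRCm38), and 10 snoRNA or microRNA models lie inside it, each within an exon of some Gas5 isoform. The count tables list 2 of them by symbol, Snord47 and Mir5117. Reads of the unlisted models cannot be told apart from reads of Gas5 exons in a count per gene. Per kilobase of its 3760 bases of annotated exon, Gas5 had a mean RPKM of 44271, below Snord47 at 222778 ± 15121. The annotation the authors counted with was not given in the sources used here.

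Box H/ACA snoRNAs were a small class led by a pair. The class took 0.382%, 0.530% and 0.694% of gene counts (0.535% ± 0.156, SD, n = 3), with 31 of 36 listed members having a read. Snora28, in the translation factor gene Eif5, had 0.213%, 0.223% and 0.287% (46.4% of the class on average), and Snora68 had 0.129%, 0.241% and 0.311% (41.3%). Snora28 was higher in input 1 and Snora68 in inputs 2 and 3. Snora28 is printed with Snora43, the third by mean share, to show members whose annotated model has its ACA nearer the end than the usual 3 bases.
Snora28: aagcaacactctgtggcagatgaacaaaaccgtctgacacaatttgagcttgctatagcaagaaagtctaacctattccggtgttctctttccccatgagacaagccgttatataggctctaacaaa
Snora43: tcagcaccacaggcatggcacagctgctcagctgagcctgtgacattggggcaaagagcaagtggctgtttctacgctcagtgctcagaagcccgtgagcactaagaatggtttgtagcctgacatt
Of the 31 H/ACA snoRNAs with a read, 30 were searched, and Snora74a was left out. An ACA exactly 3 bases before the end was found in 83.3% of the 30, and in none of the C/D snoRNAs searched. Snora28 and Snora43 hold an ACA as well, but nearer the end of these models, so the search at that exact place missed it.

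The step from the leading pair to the rest was wide. Snora43 had 161, 141 and 1588 counts, and Snora68 lay 13.1-fold above it on average with no overlap of their ranges. Input 3 alone set the place of Snora43, whose share there was 9.60 times that in input 1, and its CV of 1.15 was the largest of the class. Snora52, with 209, 161 and 381 counts, and Snora34, with 201, 135 and 396, overlapped it and each other. Snora31 had 112, 121 and 302 counts. Spearman's coefficient across the 23 members averaging at least 10 counts was 0.906 to 0.956 between libraries. The median CV was 0.32 against 0.15 from counting alone, and 21 of 23 lay above their counting value. Of the 23, 13 were highest in input 3, 10 in input 2 and 0 in input 1 as shares, but 6 were highest in input 1, 6 in input 2 and 11 in input 3 after TMM scaling, which sets the bulk of genes level across libraries.

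ScaRNAs were few in counts and varied between libraries. All 9 listed scaRNAs had a read, yet the class took only 0.0105%, 0.00817% and 0.0140% of gene counts (0.0109% ± 0.0029). Scarna13 had 254, 43 and 165 counts (40.4% of the class), above Scarna8 with 16, 37 and 82 in every library. Scarna3a had 18, 6 and 143 counts, a CV of 1.27, and its rank came from input 3. Scarna6 had 32, 28 and 58, and Scarna2, the longest of them, had 33, 19 and 36 with the smallest CV of these 5, 0.080. Counting alone gives 0.19 for Scarna2, so its CV lies under counting error. Ranks of the 6 members averaging at least 10 counts were not kept between libraries (Spearman's coefficient -0.03 to 0.37). Their median CV was 0.40, against 0.19 from counting alone, and 5 of 6 lay above their counting value.

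SnoRNAs of the imprinted Dlk1-Dio3 region on chromosome 12, a region whose small RNAs come from the maternal copy, made a further group. DQ267100, annotated inside the long noncoding gene Rian, had 6875, 1393 and 2724 counts, or 0.180%, 0.0739% and 0.0692%. DQ267102, from the same gene, had 1718, 610 and 1270 counts. AF357425, also inside Rian, had 594, 254 and 748. The sequences of DQ267100, DQ267102 and the rarer DQ267101 are alike at both ends and hold both boxes, shown in capitals.
DQ267100: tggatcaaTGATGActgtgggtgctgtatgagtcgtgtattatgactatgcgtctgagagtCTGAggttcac
DQ267102: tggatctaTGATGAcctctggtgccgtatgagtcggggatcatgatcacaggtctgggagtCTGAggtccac
DQ267101: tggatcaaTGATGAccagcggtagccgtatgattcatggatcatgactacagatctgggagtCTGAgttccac
Rian itself had 6474, 1408 and 2200 counts, 0.169%, 0.0747% and 0.0559%, with input 1 the highest for Rian and for DQ267100 alike. GENCODE M21 places 18 small RNA models inside Rian, so its count may hold their reads, and the files cannot tell these apart. AF357355 (791, 194 and 264 counts) and AF357426 (697, 198 and 230) were also highest in input 1, AF357359 had 207, 45 and 84, and AF357399 had 4, 5 and 13. The shares of AF357355, AF357426 and AF357359 in input 1 were 2.53 to 3.12 times those in their lowest library, whereas AF357425 was highest in input 3. GENCODE M21 has no model under the names AF357355, AF357426 and AF357359, and it places AF357399 on chromosome 7.

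MicroRNA genes took 0.0549%, 0.0643% and 0.132% of gene counts (0.0837% ± 0.0420), with 166 of 660 listed genes having a read and 69 having one in all 3 libraries. The counts are per gene, and mature sequences from RefSeq were used for 154 of the 166, Mir143 not among them. These 285 mature microRNAs are 19 to 26 nucleotides long and 0 reach 30, the lower bound of the labelled size range. Whether the reads come from mature microRNAs or from precursors cannot be told apart in a count per gene. The mature 5′ or 3′ arms below are those of some leading genes and of lower-ranked genes that share a seed. Among the latter, Mir125b-1, Mir27a, Mirlet7i, Mirlet7e and Mir27b rank 15, 18, 21, 22 and 24 in the class. The seed (bases 2 to 8) is in capitals, and arms that share a seed stand next to each other.
miR-10b-5p: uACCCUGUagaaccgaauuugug
miR-99b-5p: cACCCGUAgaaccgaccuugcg
miR-191-5p: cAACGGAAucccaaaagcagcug
miR-125a-5p: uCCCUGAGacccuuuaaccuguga
miR-125b-5p: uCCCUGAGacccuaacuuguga
miR-20a-5p: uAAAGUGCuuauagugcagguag
miR-93-5p: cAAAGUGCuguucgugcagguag
miR-29b-3p: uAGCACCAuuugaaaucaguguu
miR-541-5p: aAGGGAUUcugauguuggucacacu
let-7i-5p: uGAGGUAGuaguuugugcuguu
let-7e-5p: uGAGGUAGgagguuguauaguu
miR-27a-3p: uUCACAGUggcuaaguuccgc
miR-27b-3p: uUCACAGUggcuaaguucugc
The arm printed is not a measured arm.

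Mir10b, which lies within the annotated span of Hoxd3 and Hoxd4, led the class with 478, 111 and 1054 counts, 17.4% of microRNA counts on average. Its share in input 3 was 4.55 times that in input 2. Mir99b had 67, 65 and 727 counts and the largest CV among members averaging at least 50 counts, 1.17, with input 3 far above the others. Mir125a (56, 71 and 295) lies in the same gene, Spaca6, and was also highest in input 3. Mir191 had 71, 60 and 335 counts, Mir541 50, 34 and 221, and Mir29b-1, of a family known to repress collagen mRNAs, 37, 55 and 180. All of these had their highest share in input 3, as did 26 of 35 microRNA genes averaging at least 10 counts (22 of 35 with TMM scaling). The median CV of the class was 0.51, against 0.22 from counting alone.

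Some entries have another annotation or none. Mir677 had 277, 150 and 250 counts with a CV of 0.11, and GENCODE M21 annotates its locus as a snoRNA inside Atp5b. Mir1839, which ranks 29 in the class, is annotated as a scaRNA. Mir5109 had 247, 109 and 225 counts and the smallest CV of the class at 0.068, under the 0.077 that counting alone gives. No model of it was found in either annotation used here. Mir677 and Mir5109 thus varied less over the libraries than Mir10b, Mir99b or Mir191 did. The order of the remaining leaders overlapped throughout: Mir20a had 72, 81 and 239 counts, and Mir93 had 55, 70 and 202.

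By group, microRNAs of the Mir17-92 cluster, known for promoting proliferation, held 5.73% ± 2.28 of microRNA counts and those of the related Mir106b-25 cluster 4.79% ± 1.84. Both clusters share the AAAGUGC seed through Mir20a, Mir93 and Mir106b. The Mir29 family held 3.51% ± 1.47, the Mir23-27-24 group 3.31% ± 1.25, the let-7 family 3.06% ± 0.86 and the Mir143-145 pair 2.71% ± 0.88. The Mir30 family held 1.75% ± 0.16 and Mir221-222 1.02% ± 0.14. The group of Mir199 genes and its partner had 0, 0 and 3 counts in inputs 1, 2 and 3, at or under the floor. From the Mir17-92 cluster to the Mir143-145 pair, the ranges of groups next to each other in this order overlapped over the libraries. The Mir30 family lay below all of these in every library, and Mir221-222 below the Mir30 family.

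Histone genes, whose mRNAs are made in S phase, took 0.0409%, 0.0719% and 0.0963% of gene counts (0.0697% ± 0.0278), and 53 of 68 listed genes had a read. A single histone H4 gene, Hist1h4d, had 848, 706 and 2255 counts, 55.3% ± 3.82 of the class. Hist2h2bb had 97, 94 and 266, Hist2h2ac 37, 54 and 203, Hist1h4i 156, 54 and 68, and Hist1h1b 50, 40 and 109. Hist1h4i was highest in input 1, while the other 4 were highest in input 3. By family, H4 genes held 69.9% ± 3.14 of histone counts, H2B 11.2% ± 0.93, H2A 8.44% ± 1.96, H1 6.12% ± 0.29 and H3 4.39% ± 1.28. H4 was the highest family and H2B the next in all 3 libraries. Histone genes of a family are near-identical in their coding part, so single members are uncertain.

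The stem-loop at the end of these mRNAs was searched for in the annotated transcripts, since it marks the replication-dependent genes. It was found in 27 of the 53 histone genes with a read, and in 1 of 21762 other protein-coding genes. The commonest form, present in 21 genes, is shown from Hist1h2bh.
Hist1h2bh: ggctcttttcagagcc
None of the 11 H4 genes with a read, Hist1h4d included, was among the 27. This says only that the letters found by the search are not in their models. Median CV of histone genes was 0.47, against 0.25 from counting alone, and 25 of 28 lay above their counting value.

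Other stable small RNAs were few. Rmrp, the RNA of RNase MRP, had 858, 846 and 1772 counts and held 76.1% of this class, whose share of gene counts was 0.0310%, 0.0593% and 0.0560%. Rpph1, the RNA of RNase P, had 104, 96 and 117 counts, and Vaultrc5, a vault RNA, had 147, 68 and 114. Rnu12, an RNA of the minor spliceosome, had 58, 86 and 147, and Terc, the telomerase RNA, had 10, 16 and 43. Rnu11, the partner of Rnu12 in the minor spliceosome, had 9, 6 and 11. Rmrp lay above every other member in every library, and the ranges of Rpph1, Vaultrc5 and Rnu12 overlapped as shares.

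Some small RNAs listed in the tables had no read in any input. Among C/D snoRNAs these were Snord116, Snord116l1 and Snord116l2 of the Prader-Willi region, whose expression is known mainly from neurons, Snord118, which is needed for pre-rRNA processing, and Snord1a, Snord7, Snord14a, Snord14c, Snord14d, Snord45c and Snord93. Among H/ACA snoRNAs they were Snora19, Snora24, Snora26, Snora35 and Snora47. Bc1, a neuronal RNA, Rn4.5s, Rnu6 and Rnu7 also had none. Each is under the floor of 3 counts per library given above. For Snord118, Rnu6 and other RNAs known to be widely expressed, the absence of reads says nothing of the cell, since how their reads were assigned was not given in the sources used here.

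Rn45s, the ribosomal RNA precursor, kept 2.05%, 2.87% and 2.95% of gene counts after the removal of rRNA reads that the file names record, and what share was removed is unknown. Nuclear long noncoding RNAs took 0.243%, 0.148% and 0.147%, mostly Rian and Malat1. Malat1 had 2597, 1212 and 3276 counts, Neat1, which builds paraspeckles, had 111, 83 and 148, and Kcnq1ot1 had 46, 37 and 77. Malat1 was the steadier of the leading pair, with 0.0678%, 0.0643% and 0.0833%. Ribosomal protein genes took 0.0156% ± 0.0030 in all, led by Rps3a1 with 96, 70 and 229 counts, Rpl4 with 50, 23 and 53, Rplp0 with 27, 32 and 52 and Rpl8 with 33, 21 and 34.

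Protein-coding genes of all kinds came to 1.56%, 2.18% and 2.36% of gene counts (2.03% ± 0.42), spread over many genes. Apart from Nxf3, the highest protein-coding gene outside the classes above was Lars2, the mitochondrial leucyl-tRNA synthetase gene, with 988, 666 and 784 counts. Fn1 had 475, 213 and 553 counts, and Ahnak, a gene with a very long coding exon, had 320, 247 and 437. Among those averaging at least 50 counts, Psap was the most even (67, 32 and 69 counts, CV 0.018) and Idh2 the least (62, 36 and 207, CV 0.69). Counting alone gives 0.14 for Psap and 0.13 for Idh2, so the CV of Psap lies under counting error. Gm12238, annotated as a snoRNA in RefSeq, had 545, 230 and 642 counts. Nxf3 had 2343, 2217 and 2028 counts, or 0.0612%, 0.118% and 0.0515%, and reads of the plasmid cannot be told apart from those of the cell's own gene.

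Counts were concentrated in very few genes. In each library 4 genes held 50% of gene counts, and 14, 16 and 16 genes held 90%. The 10 highest genes took 84.8%, 83.9% and 83.7%, and 9 genes were among the 10 highest of every input. Reaching 99% took 481, 1016 and 1401 genes, so the libraries differed in how far the tail reached, while the summed share of the highest genes was alike. Of the 10943 genes with a read, 6209 had one in all 3 inputs, 2210 had reads in only 1 input, and 883 had at least 10 counts in all 3. At the depth of input 2, the expected number of genes with a read was 6950 in input 1, 7567 in input 2 and 8076 in input 3. Input 1 thus detected fewer genes than input 2 at equal depth, although it detected more in full (8654 against 7567).

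**Figure D4:**
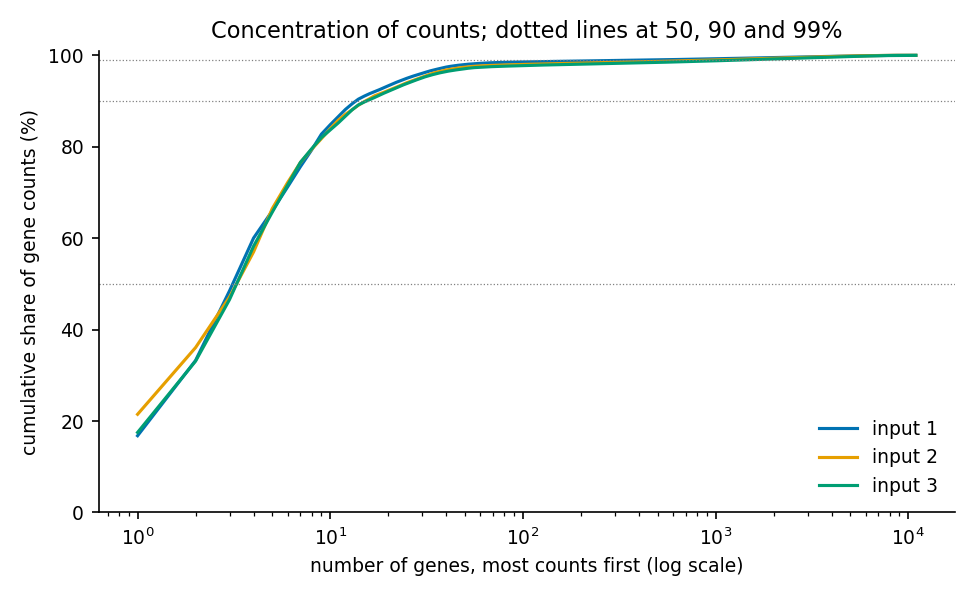
Cumulative share of gene counts (%) against the number of genes, most counts first (log scale), for inputs 1, 2 and 3. The 3 curves cross 50% at 4 genes and 90% at 14 to 16 genes, and the curve of input 1 is the earliest to reach 99%.

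Across genes the 3 inputs were alike but not equal. Pearson's r on log2(CPM + 1), where CPM are counts scaled to the library's gene counts, over 10943 genes, was 0.891 for inputs 1 and 2, 0.915 for inputs 1 and 3 and 0.896 for inputs 2 and 3, a description across genes. Among the 211 genes averaging at least 50 counts, 15.6%, 32.2% and 6.64% differed by more than 2-fold in share for these pairs. Inputs 2 and 3 were thus the closest pair by this measure, although not by r, which weighs many genes with few reads. Which input is the highest for a class depends on the scaling: 25, 17 and 21 of 63 C/D snoRNAs were highest in inputs 1, 2 and 3 as shares, and 45, 2 and 16 with TMM scaling, which lowers the effective size of input 1. Gene classes differed in spread: the median CV was 0.28 for C/D snoRNAs, 0.32 for H/ACA snoRNAs, 0.47 for histone genes and 0.51 for microRNA genes. Members with few counts carry more counting error, so the medians cannot be set against each other without the counting values given above. Experiment, culture and library preparation cannot be told apart as sources of the spread, and the labels give no batch within the group.

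**Figure D5:**
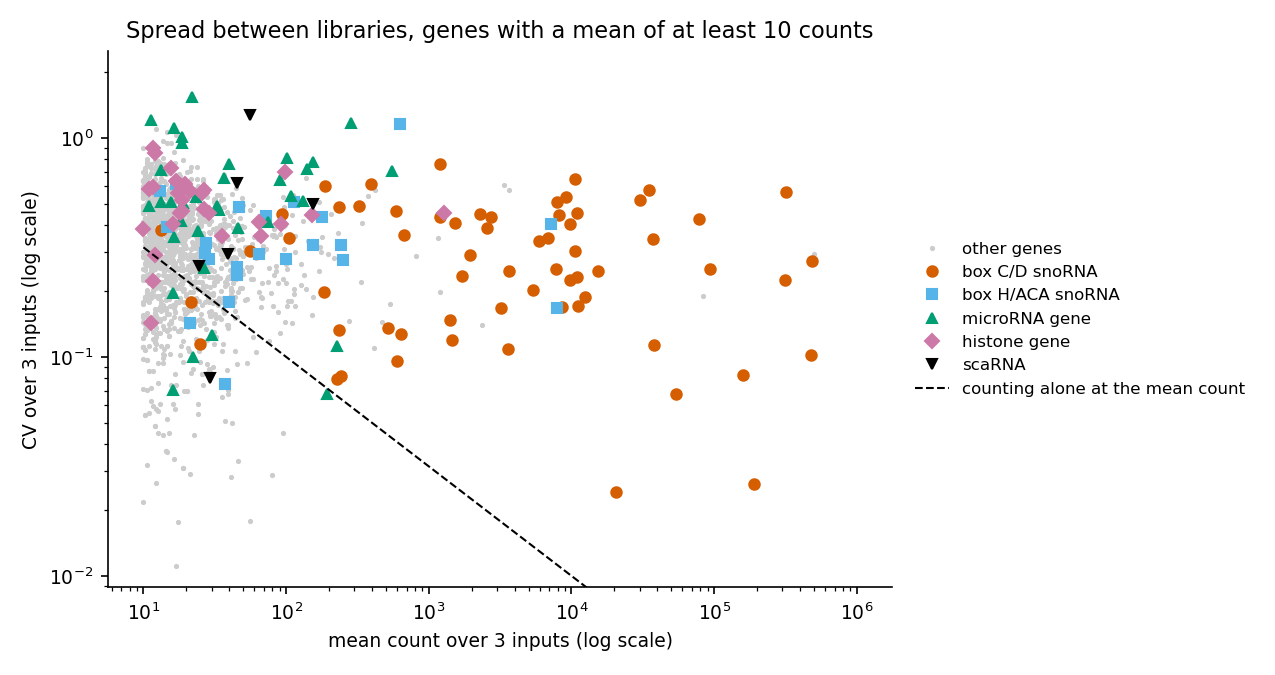
Coefficient of variation over the 3 inputs against mean count, both on log scales, for genes averaging at least 10 counts; the dashed line is the CV that counting alone gives at that mean. Nearly all C/D snoRNAs lie far above the line, for example Snord61 at 0.76, and Snord88a and Snord83b, at 0.024 and 0.026, are the lowest of the class.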

How the data were processed

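The authors deposited a table of raw read counts per gene for each of the 3 input libraries. Per the submitters' processing notes, Bowtie, Partek and the mouse build mm9 were used; removal of rRNA reads and HTSeq-count are recorded per the file headers and names. Annotation, strand setting and versions were not given in the sources used here, so reads of a gene and an antisense or overlapping gene cannot be told apart. The 5 summary lines were left out, and genes held 22.2% to 30.3% of all counts with those lines included. Shares are percents of gene counts, with Clopper-Pearson 95% intervals (Python 3.11.15, scipy 1.17.1). Classes follow symbols. Lengths, hosts and snoRNA sequences came from GENCODE M21 (23052 genes had a length), mature microRNAs from RefSeq (GRCm38.p6). Both are on GRCm38, unlike the counts, and no coordinate was converted. TMM (edgeR 4.0.16) and DESeq2 1.42.0 size factors served as alternatives. The spread code was tested on simulated data. The rule named, by mean share, the 10 highest C/D snoRNAs and microRNA genes, fewer in smaller classes, the most and least even member of each class averaging at least 50 counts, and a set list; other genes and the printed sequences were chosen after their values were seen. The members and lists were chosen with earlier results of these data known. Some items are not reported here. No test was run, because there is 1 group.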

Additional observations from a re-analysis of the deposited data

Results flagged for a closer look

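Of all counts, summary lines included, 22.5%, 16.95% and 21.8% in inputs 1, 2 and 3 were reads that aligned outside annotated genes. They lie outside the values reported above, since such reads name no gene, and in every library they were fewer than the reads assigned to genes (30.3%, 22.2% and 24.8%). Which small RNAs they come from was not tested.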

How the results depend on the processing

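The C/D share of 77.6% became 93.1% without Gas5 in the total, 20.1% of all counts with summary lines included, 98.7% per kilobase and 94.3% with Gas5 counted among the C/D snoRNAs. For all named snoRNA classes together 78.2% became 93.8%, 20.2%, 99.1% and 94.8%. Host genes went from 16.7% to 0.00172%, 4.25% and 0.468% under the first 3 of these. Of all counts with summary lines included, H/ACA snoRNAs were 0.135%, scaRNAs 0.00282%, microRNA genes 0.0212% and histone genes 0.0174%. Without Mir677 and Mir1839, an alternative chosen after seeing the data, microRNA genes were 0.0760%. Per kilobase, scaRNAs were 0.00613% and histone genes 0.00903%. The median CV of 0.32 over all genes averaging at least 10 counts was 0.21 without replicate 1, with a range of 0.21 to 0.31 over the libraries left out in turn. The lowest r of 0.89 was 0.73 with a pseudocount of 0.1, 0.97 with 10 and 0.95 for genes averaging at least 10 counts. Genes detected per library were 1728 at 10 counts instead of 8628 at 1. These changes follow from how each alternative is built, except the CV, where the cause was not tested. TMM factors on the log2 scale were -0.39, 0.19 and 0.19 for inputs 1, 2 and 3. No paired analysis was possible because the values come from 1 group and from no test.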
